A study of Mus musculus with 40 samples.

Results

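The replication-dependent histone genes code for the core histones H2A, H2B, H3 and H4 and for the linker histone H1 that a cell makes while it copies its DNA. Here they are the genes with a mouse symbol that starts with Hist1h, Hist2h, Hist3h or Hist4h, selected on a mean of at least 0.5 CPM (counts scaled to a common library total of a megacount) over the libraries of a model. Of 70 annotated symbols, 58 met this rule in at least 1 model, among 55536 genes counted. In the bleomycin model 56 were members and in the Ad-TGFβ model 58. They comprised 5 genes for H1, 14 for H2A, 15 for H2B, 11 for H3 and 13 for H4. The H2B count includes Hist3h2bb-ps, which is annotated as a processed pseudogene and was a member in the Ad-TGFβ model only. The rule used only the mean level over all libraries of a model and no difference between groups. Just inside it stood Hist2h2aa2 at 0.63 CPM in the bleomycin model and 0.619 CPM in the Ad-TGFβ model, and Hist1h2ah at 0.781 and 1.04 CPM. Just outside it in the bleomycin model stood Hist3h2ba at 0.490 CPM, Hist3h2bb-ps at 0.476 CPM and Hist1h2bp at 0.342 CPM. Without the bleomycin and vehicle group Hist1h2ah would have had a mean of 0.377 CPM there, so its membership in that model rested on the group where it was high.

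The series measured RNA in left lungs of C57BL/6 mice, both sexes per the labels, in 8 groups with 5 libraries each. For the bleomycin model, saline or bleomycin at 1.5 U/kg, a drug that breaks DNA, was placed in the oropharynx. In the Ad-TGFβ model they received an empty adenoviral vector or the same kind of vector carrying mouse TGF-β1 behind a CMV promoter, by the nose. In each model vehicle or saracatinib at 20 mg/kg, which blocks kinases of the Src family, was given daily by gavage from day 10 to day 27, for 18 days, and lungs were taken on day 28. The labels do not state that each library is 1 mouse, so p-values measure the spread between these libraries. Ribosomal RNA was depleted and no poly-A selection was made, so RNA without a poly-A tail could enter the libraries.

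Most histone genes lie in clusters and lack introns. Their RNA is made mainly in S phase, after cyclin E and CDK2 activate the coactivator NPAT, and it ends in a stem-loop instead of a poly-A tail. The stem-loop is bound by SLBP, the U7 snRNP and a cleavage complex cut just after it, and the RNA is degraded when DNA synthesis stops. Some of these genes can also be cleaved at a downstream poly-A signal, which gives polyadenylated RNA in cells that have left the cell cycle. H3.3, H2A.Z and other replication-independent variants come from ordinary polyadenylated genes elsewhere in the genome.

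On the GRCm38 build the members formed few clusters. The Hist1 cluster on chromosome 13 fell into a distal part with 18 members (chr13:21715763-22043676) and a main part with 28 (chr13:23531050-23764406). A second cluster on chromosome 3 held 8 members (chr3:96219865-96270132), another on chromosome 11 held 3 (chr11:58948920-58956830), and Hist4h4 lay alone on chromosome 6 (chr6:136801553-136804415). Of the 58 members, 56 had a single exon. An exon of another gene overlapped 5 members on the same strand and 17 on the opposite strand. The share of a member's exon windows that occurred in no other gene's annotated transcript, on either strand, had a median of 66.5%. It was 0.0% for 3 members, Hist2h2bb, Hist2h3b and Hist2h2aa2, each covered in full by a gene on the opposite strand. An overlapping gene on the opposite strand thus lowers this share, as does a near-identical member. Counts of near-identical members and of members with an overlapping gene are therefore uncertain.

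The stem-loop was found in the annotated transcript of 40 of 58 members, 21 to 58 bases after the stop codon with a median of 31. In 19 of these the annotated transcript ended within 100 bases after the loop, and in 21 it ran further. For the other 18 the annotated transcript held no match. The loops below belong to members on which the results turn, one set for each class, and the capitals mark the 16-base stem-loop.
Hist1h1c (H1, chr13:23739512-23739527, plus strand): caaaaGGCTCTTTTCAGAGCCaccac
Hist2h2ac (H2A, chr3:96220418-96220433, minus strand): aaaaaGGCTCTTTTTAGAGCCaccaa
Hist1h2bg (H2B, chr13:23571843-23571858, plus strand): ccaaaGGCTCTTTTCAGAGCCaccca
Hist1h3c (H3, chr13:23745047-23745062, minus strand): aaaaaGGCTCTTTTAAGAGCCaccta
Hist1h4d (H4, chr13:23581950-23581965, plus strand): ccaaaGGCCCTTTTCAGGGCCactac
Hist1h4h (H4, chr13:23531458-23531473, plus strand): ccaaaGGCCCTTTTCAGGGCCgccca
The loops split by class. The core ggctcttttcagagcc was shared by 21 members, 3 of H1, 7 of H2A, 7 of H2B and 4 of H3, and by no H4 gene. The core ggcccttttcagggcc was found in 7 members, all of them H4 genes. The core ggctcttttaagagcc was found in 3 H3 and 2 H2B genes.

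Promoters also differed between classes. RefSeq promoter windows on GRCm38.p6, from 250 bases before to 50 bases after the start, matched 52 of the 58 members. The octamer ATTTGCAT, the motif of Oct-1, was found on either strand in 11 of 52 (21.2%), against 1.75% of all 27025 windows. It was in 6 of 14 H2A genes and 5 of 12 H2B genes, and in none of the H1, H3 or H4 windows. Windows of neighbouring genes read in opposite directions, such as Hist1h2ae and Hist1h2bg, can overlap. The same octamer can then be counted for both genes. TATAAA was in 31 members (59.6%), against 14.2% of all windows, and CCAAT in 43 (82.7%), against 37.9%. Only 3 of 12 H4 windows held CCAAT, while it was in every H1, H2A, H2B and H3 window matched. The stretches below, the 150 bases before the start of an H2B and an H4 member that rose in both models, are shown with the octamer and TATAAA in capitals. TATAAA is in both and the octamer in the H2B stretch alone. Hist1h4d is among the 3 H4 genes with CCAAT, which lies on the minus strand and is not in capitals.
Hist1h2bg (H2B, chr13:23571250-23571399, plus strand): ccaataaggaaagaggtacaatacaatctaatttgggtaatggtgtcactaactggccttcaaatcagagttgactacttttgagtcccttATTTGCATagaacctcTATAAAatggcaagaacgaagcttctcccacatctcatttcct
Hist1h4d (H4, chr13:23581418-23581567, plus strand): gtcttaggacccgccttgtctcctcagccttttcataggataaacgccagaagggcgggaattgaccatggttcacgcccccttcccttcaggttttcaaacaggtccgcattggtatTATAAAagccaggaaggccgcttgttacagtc
A match is a run of letters and not a measured binding site.

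Library totals ran from 8.81 to 17.3 M counts (M, megacounts). Histone members took 0.0393 to 0.123% of a library, which was 3624 to 16924 counts. Alveolar epithelial markers were abundant in all 8 groups, with a summed level of 5507 to 10410 CPM for 10 genes. Replicate 3 had the highest summed histone level of its group in bleomycin with vehicle, at 1301 CPM, and in empty vector with vehicle, at 853 CPM. By the gap rule of the flagged results neither was apart from its group in this sum. Results that changed without them are given with both values.

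The summed level of all members was higher after bleomycin than after saline in lungs given vehicle. It was 468 ± 33.0 CPM (SD, n = 5) after saline, with libraries at 435 to 514 CPM, and 898 ± 252 CPM after bleomycin, with libraries at 648 to 1301 CPM. The 5 bleomycin libraries all lay above the 5 saline libraries. With saracatinib the bleomycin lungs had 568 ± 74.3 CPM, 0.633 times the level with vehicle, and the saline lungs 448 ± 54.2 CPM. In the Ad-TGFβ model the empty vector lungs had 637 ± 154 CPM with vehicle and 563 ± 89.0 CPM with saracatinib. Ad-TGFβ lungs had 846 ± 61.2 CPM with vehicle, 1.33 times the empty vector level, and 757 ± 110 CPM with saracatinib. The ranges of empty vector with vehicle (467 to 853 CPM) and Ad-TGFβ with vehicle (768 to 939 CPM) overlapped through replicate 3 of the empty vector group. The empty vector controls had 1.36 times the level of the saline controls, each with vehicle. Libraries were scaled in each model by itself. Between the same controls the ratio of summed markers was 3.12 for striated muscle and 3.09 for B cells. It was 2.83 for T cells and 2.58 for megakaryocytes and platelets, while the ranges of summed macrophage markers overlapped. Listed S phase genes summed to 465 to 673 CPM with empty vector and 418 to 456 CPM with saline. Listed G2 and M phase genes summed to 175 to 498 CPM with empty vector and 128 to 190 CPM with saline. The part of these genes in the difference was not tested.

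**Figure D1:**
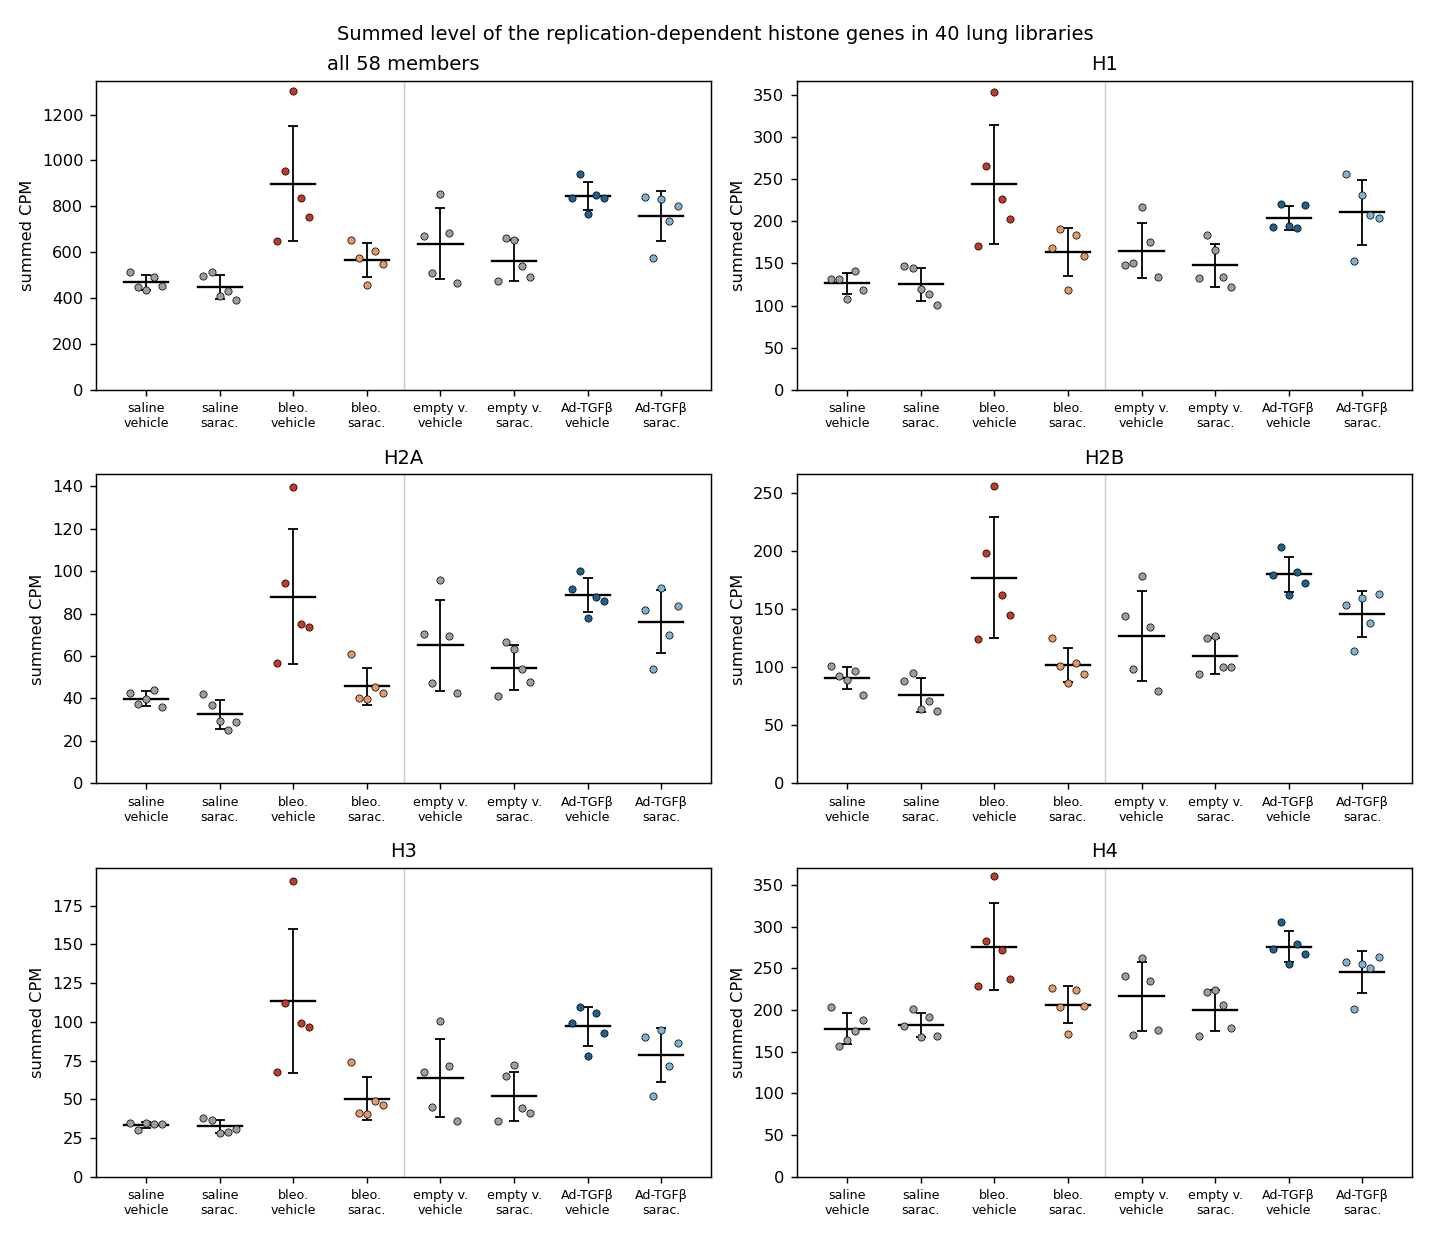
Summed CPM of the replication-dependent histone members in each of the 40 libraries, for all members and by class, in the 8 groups. Points are libraries, and black marks give the mean and SD of 5. Bleomycin with vehicle reaches 648 to 1301 CPM, above all saline libraries, and Ad-TGFβ with vehicle is at 768 to 939 CPM.

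Ratios after bleomycin were computed for each class. The ratio of the summed means, bleomycin over saline with vehicle, was 3.38 for H3, 2.20 for H2A, 1.95 for H2B, 1.93 for H1 and 1.56 for H4. These sums are weighted towards members with many counts, and the classes were in another order by the median fold change of their members, at 3.54 for H2B, 3.32 for H3, 3.19 for H1, 2.91 for H2A and 2.15 for H4. No test of a difference between classes was run. The share of histone counts from H3 genes was 7.19% in saline and 12.3% in bleomycin lungs, and that from H4 genes 37.9 and 31.3%. In bulk lung a change in the number of cells in S phase and a change in RNA per cell cannot be told apart.

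After bleomycin in vehicle-treated lungs, 48 of 56 members rose and 2 fell by edgeR's quasi-likelihood test at an adjusted p under 0.05. Among all 18846 genes tested, 20.6% were called higher and 20.3% lower. The members' median log2 fold change was 1.54, with a range of −1.26 to 2.6, against −0.03 over all genes. In 44 of the members all bleomycin libraries lay above all saline libraries, which held for 14.2% of all genes. The members tested all passed the filter on low counts, and the count of those called includes Hist1h2ah, whose membership was set by its level in the bleomycin group.

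All 5 H1 genes, which code for the linker histones that sit where DNA enters and leaves the nucleosome, rose after bleomycin with a median log2 fold change of 1.67. Hist1h1b (ENSMUSG00000058773, chr13:21779883-21780625, minus strand), coding for H1.5, had 3.58, 4.42, 4.55, 6.39 and 3.24 CPM in the 5 saline libraries and 9.31, 24.7, 43.1, 16.2 and 17.9 CPM in the 5 bleomycin libraries. The groups did not overlap, and replicate 3 was the highest of the bleomycin libraries. Its log2 fold change was 2.33 ± 0.36 (SE, adjusted p = 5.9e-05). Hist1h1a, coding for H1.1, rose by 2.42 ± 0.35 (adjusted p = 3.17e-05). Hist1h1d rose by 1.67 ± 0.25 on the log2 scale (adjusted p = 4.19e-05). Smaller changes were measured for the other H1 genes. Hist1h1c (ENSMUSG00000036181, chr13:23738808-23740367, plus strand), coding for H1.2, had 69.3, 67.6, 54.4, 67.4 and 63.6 CPM after saline and 86.4, 109, 136, 103 and 86.4 CPM after bleomycin. These groups did not overlap either, but the log2 fold change was 0.69 ± 0.14 (adjusted p = 0.000601). Hist1h1e rose by 0.52 ± 0.16 (adjusted p = 0.0155), and without replicate 3 of the bleomycin group its value was 0.40 with an adjusted p of 0.0587, which ended the call.

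Of 14 H2A genes 11 rose and 1 fell. Hist1h2ab (chr13:23751126-23751598, plus strand), a Hist1 gene that overlaps Gm44484 on the other strand, had 3.05, 3.52, 3.93, 3.46 and 3.24 CPM after saline. After bleomycin it had 5.88, 13.6, 22.8, 9.26 and 10.1 CPM. No bleomycin library fell within the saline range, and the log2 fold change was 1.84 ± 0.35 (adjusted p = 0.000359). Hist2h2ac, the H2A member with the highest count level, rose by 0.49 ± 0.13 (adjusted p = 0.00445). Hist1h2ak rose by 1.53 ± 0.27 (adjusted p = 0.000176), and Hist1h2ah by 2.34 ± 0.46 (adjusted p = 0.000541) on at most 40 counts in a library. Hist1h2ah was a member in this model only through its level in the bleomycin and vehicle group. The exceptions among H2A genes lay outside the Hist1 cluster. Hist2h2aa2 fell by 1.26 ± 0.33 on the log2 scale (adjusted p = 0.00511), from 0.539 to 1.06 CPM after saline to 0.245 to 0.514 CPM after bleomycin, on at most 19 counts in a library. None of its sequence windows was unique, and Gm20632 covers all its exon bases on the opposite strand. Hist3h2a had −0.42 (adjusted p = 0.113) and Hist2h2ab 0.13 (adjusted p = 0.744).

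Of 13 H2B genes tested 10 rose and 1 fell, with a median of 1.82. Hist1h2bk (ENSMUSG00000062727, chr13:22035870-22036345, plus strand) lies next to Hist1h2ah (chr13:22035164-22035568, minus strand), which is read in the opposite direction. It had 0.596, 1.15, 1.16, 1.69 and 1.04 CPM after saline and 4.41, 7.93, 10.8, 5.47 and 5.54 CPM after bleomycin. The lowest bleomycin library was above the highest saline library, and the change of 6.08-fold (log2 2.6 ± 0.36, adjusted p = 1.86e-05) was the largest of the 56 members. Only 29.2% of the sequence windows of Hist1h2bk were unique, so its counts are uncertain. Hist1h2bj rose by 2.41 ± 0.33 (adjusted p = 1.61e-05), and Hist1h2bn by 1.85 ± 0.24 (adjusted p = 1.04e-05). Hist1h2bg rose by 1.37 ± 0.22 (adjusted p = 8.46e-05). Both members that were not called belong to the genes listed as polyadenylated in differentiated cells. Hist1h2bc (ENSMUSG00000018102, chr13:23684199-23692908, plus strand) had 35.6, 28.4, 27.4, 33.2 and 24.2 CPM after saline and 30.4, 39.0, 43.1, 34.6 and 30.6 CPM after bleomycin. These ranges overlapped, and its value was 0.26 ± 0.16 (adjusted p = 0.222). Hist1h2be had 0.24 (adjusted p = 0.108).

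Hist2h2be was the H2B gene that fell. This gene (ENSMUSG00000068854, chr3:96221119-96223738, plus strand) had 9.16, 10.1, 7.55, 8.08 and 7.11 CPM after saline and 5.96, 6.51, 3.15, 6.97 and 5.89 CPM after bleomycin. Every bleomycin library lay below every saline library, and replicate 3, the library with the highest summed histone level, was the lowest for Hist2h2be. It fell by 0.56 ± 0.17 on the log2 scale (adjusted p = 0.013). All of its sequence windows were unique.

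Of 11 H3 genes 10 rose, and the exception was Hist2h3c2 at −0.28 (adjusted p = 0.394). Hist1h3b (ENSMUSG00000069267, chr13:23752267-23752886, plus strand) had 0.968, 1.47, 2.31, 1.6 and 1.78 CPM after saline. After bleomycin it had 4.49, 10.4, 16.3, 9.00 and 8.52 CPM. All bleomycin libraries lay above the highest saline library, and the change was 6.00-fold (SE 0.30 on the log2 scale, adjusted p = 2.73e-06), with the smallest p of all members. Of the sequence windows of Hist1h3b 43.4% were unique. Hist1h3a rose by 2.51 ± 0.35 (adjusted p = 2.09e-05). Hist1h3c rose by 2.12 ± 0.31 (adjusted p = 3.62e-05). Hist1h3e and Hist1h3f, H3 members whose annotated transcripts run past the stem-loop, rose by 1.56 ± 0.21 and 1.50 ± 0.21 (adjusted p = 1.72e-05 and 1.71e-05).

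Of 13 H4 genes 12 rose, and the median of 1.10 was the lowest of the 5 classes. Hist1h4d (ENSMUSG00000061482, chr13:23581598-23582735, plus strand) had 67.5, 52.6, 53.2, 54.0 and 60.6 CPM after saline and 67.4, 72.6, 87.7, 75.5 and 65.5 CPM after bleomycin. Its groups overlapped, with 2 bleomycin libraries at or below the highest saline library, and its log2 fold change was 0.36 ± 0.10 (adjusted p = 0.00634). Hist1h4h rose by 0.43 ± 0.13 (adjusted p = 0.01), and Hist1h4c by 0.30 ± 0.09 (adjusted p = 0.0101). Per kilobase of exon these H4 genes and Hist1h1c had the highest mean levels over the 40 libraries, Hist1h4h 79.0, Hist1h4d 57.2, Hist1h1c 53.3 and Hist1h4c 44.7 CPM per kb. Larger changes were measured in some H4 genes with lower levels per kilobase, but not in Hist2h4, whose level per kilobase was also lower. Hist1h4b (ENSMUSG00000069266, chr13:23757013-23757409, plus strand) had 4.39, 4.66, 5.08, 6.12 and 6.90 CPM after saline and 10.4, 15.9, 22.8, 12.3 and 13.0 CPM after bleomycin. Its groups did not overlap, and it rose by 1.46 ± 0.19 (adjusted p = 9.13e-06). It shares 223 bases with 4930558J22Rik on the opposite strand. Hist1h4k and Hist1h4j rose by 1.56 ± 0.20 and 1.42 ± 0.18 (adjusted p = 8.3e-06 and 8.24e-06), and Hist2h4, the member not called, had 0.10 (adjusted p = 0.602).

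**Figure D2:**
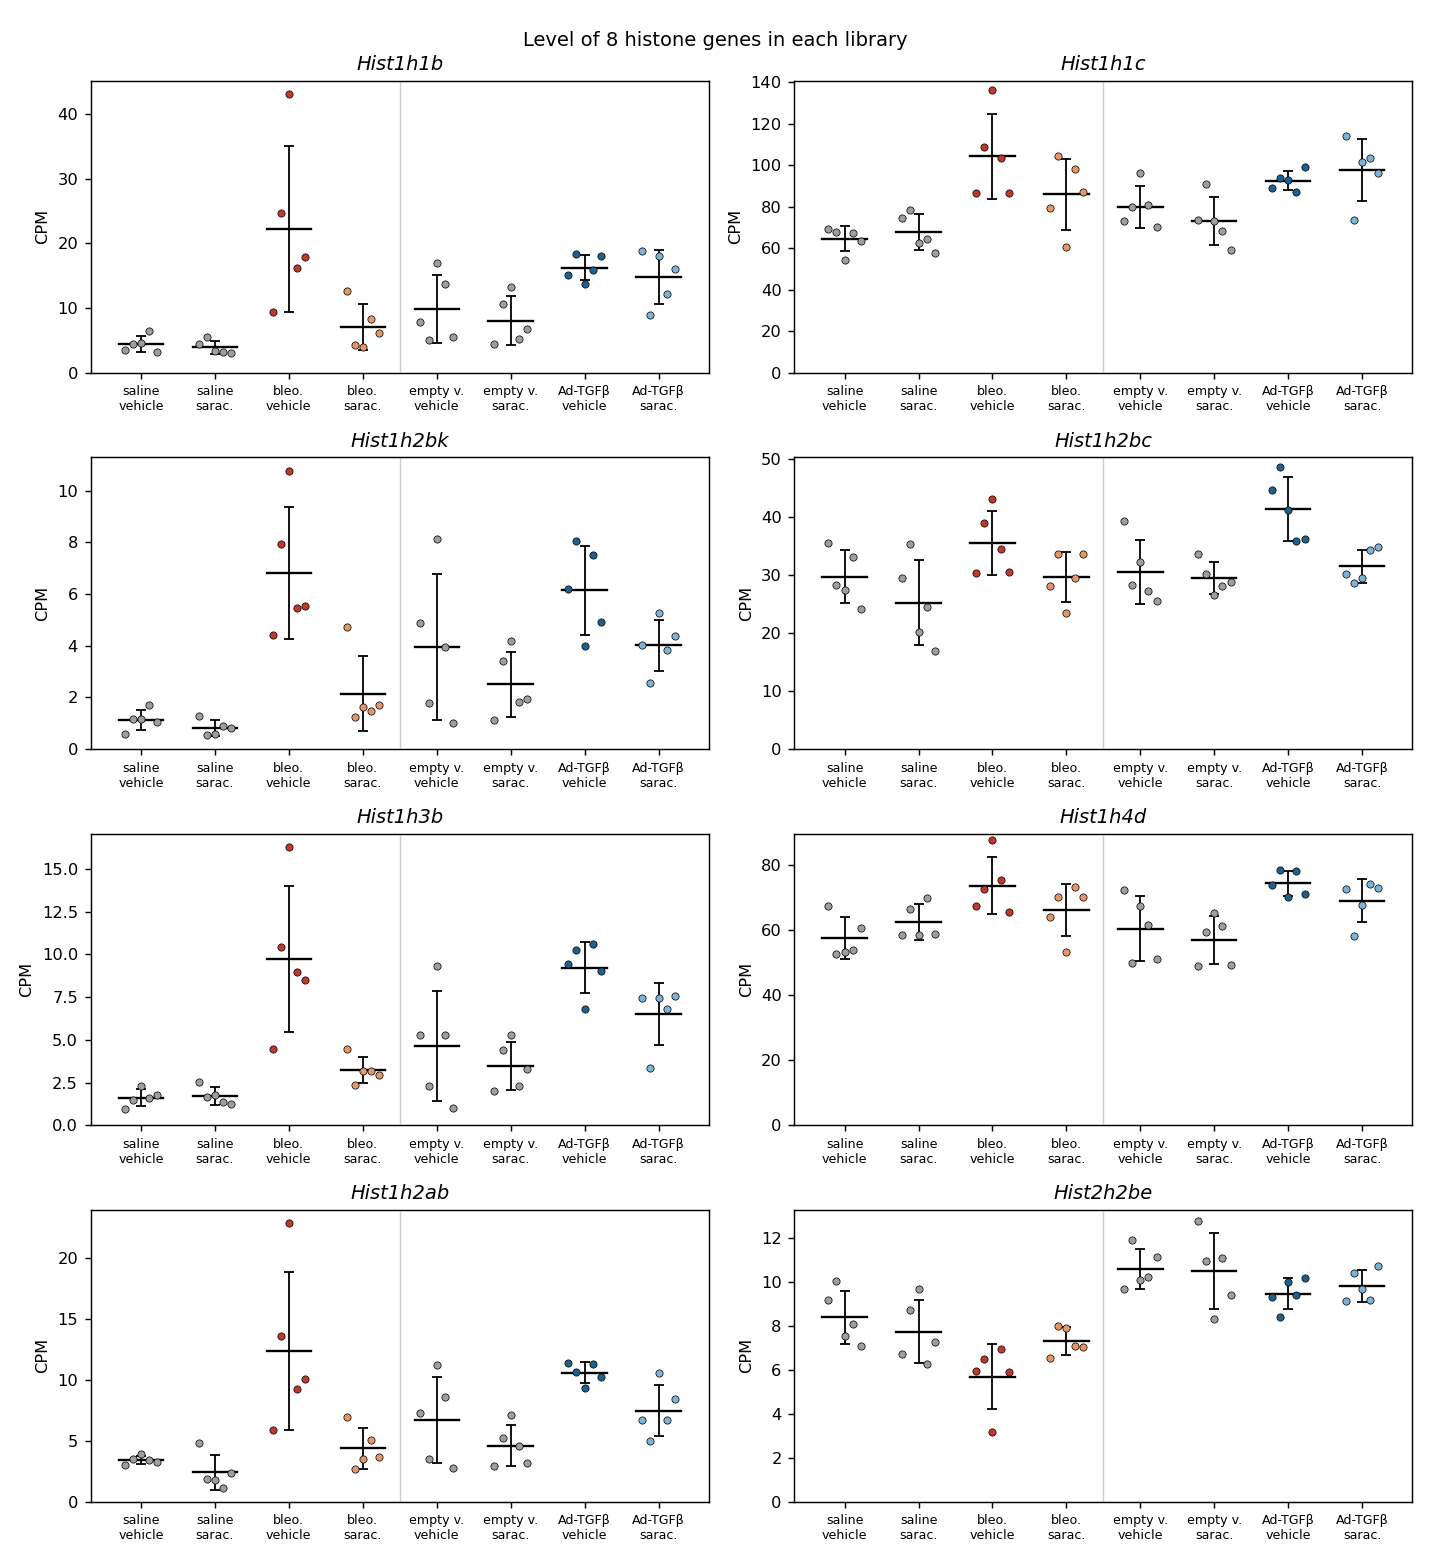
CPM of 8 histone genes in each library, by group, with the mean and SD of 5 libraries in black and a separate axis from 0 for each gene. Hist1h1b, Hist1h2bk and Hist1h3b are higher in all bleomycin libraries with vehicle than in saline, Hist1h2bc overlaps between them, and Hist2h2be is lower.

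**Figure D3:**
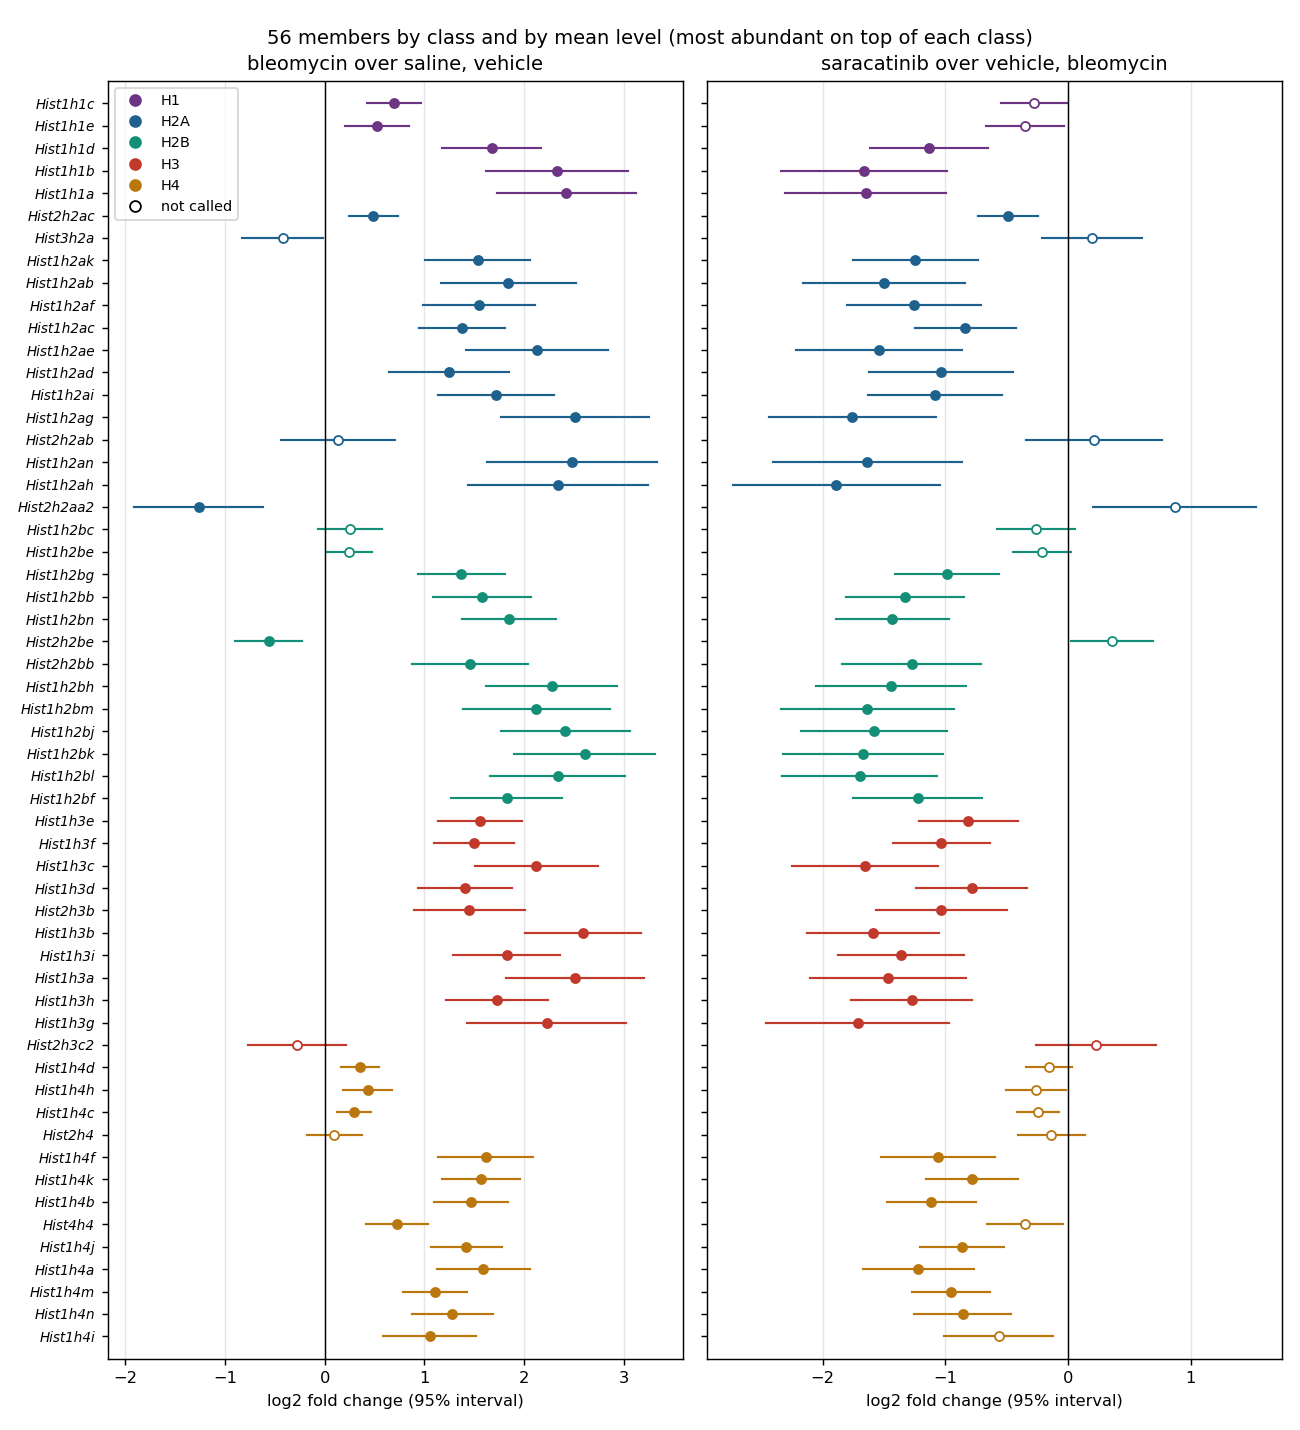
Log2 fold changes of the 56 bleomycin-model members with 95% intervals, grouped by class, for bleomycin over saline with vehicle and for saracatinib over vehicle in bleomycin lungs. In the first comparison 48 members rose and 2 fell, and in the second 41 fell.

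The members' values were also set out by position and by the end of their transcripts. In the distal part of the Hist1 cluster 18 of 18 members rose with a median of 1.84, and in its main part 26 of 28 with a median of 1.55. In cluster 2 on chromosome 3, 3 of 8 rose and 2 fell, with a median of 0.12. Those that rose were Hist2h2ac, Hist2h2bb and Hist2h3b. The last 2 had 0.0% unique windows and are covered in full by Gm20628 on the opposite strand, so their counts are uncertain. Over all genes 20.6% were called higher and 20.3% lower. Of members whose annotated transcript ended at the stem-loop 18 of 19 rose (median 1.82). Of those without an annotated loop it was 14 of 17 (median 1.72), and of those running past the loop 16 of 20 (median 1.21). By promoter, 10 of 11 H2A and H2B genes with the octamer rose (median 1.57), and 11 of 14 without it (median 1.77). These medians were not tested against each other. Rises were counted at every degree of sequence sharing, in 15 of 18 members with at least 80% unique windows (median 1.22), in 17 of 20 with 40 to 80% (median 1.58) and in 16 of 18 with under 40% (median 1.55).

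By median, members with high counts changed least. Of 9 members with a mean of at least 15 CPM over the 40 libraries, 6 rose, with a median of 0.36. Over all genes 20.6% were called higher. The largest value among the 9 was 1.67, that of Hist1h1d. For 25 members between 5 and 15 CPM the median was 1.53, and for 22 members under 5 CPM it was 1.97. Some members under 5 CPM also changed little, such as Hist2h2ab and Hist2h3c2, which were not called. The share of histone counts from the 9 members was 65.7% in saline and 50.2% in bleomycin lungs with vehicle, and 62.7% in bleomycin lungs with saracatinib. CPM depends on the annotated length, and the relation was seen per gene but hardly per kilobase. Across 56 members, Spearman's rho between the level in empty vector lungs with vehicle, from the other model, and the log2 fold change after bleomycin was −0.39 in CPM and −0.09 in CPM per kb. The members share libraries and in part sequence, so these rho are descriptions.

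**Figure D4:**
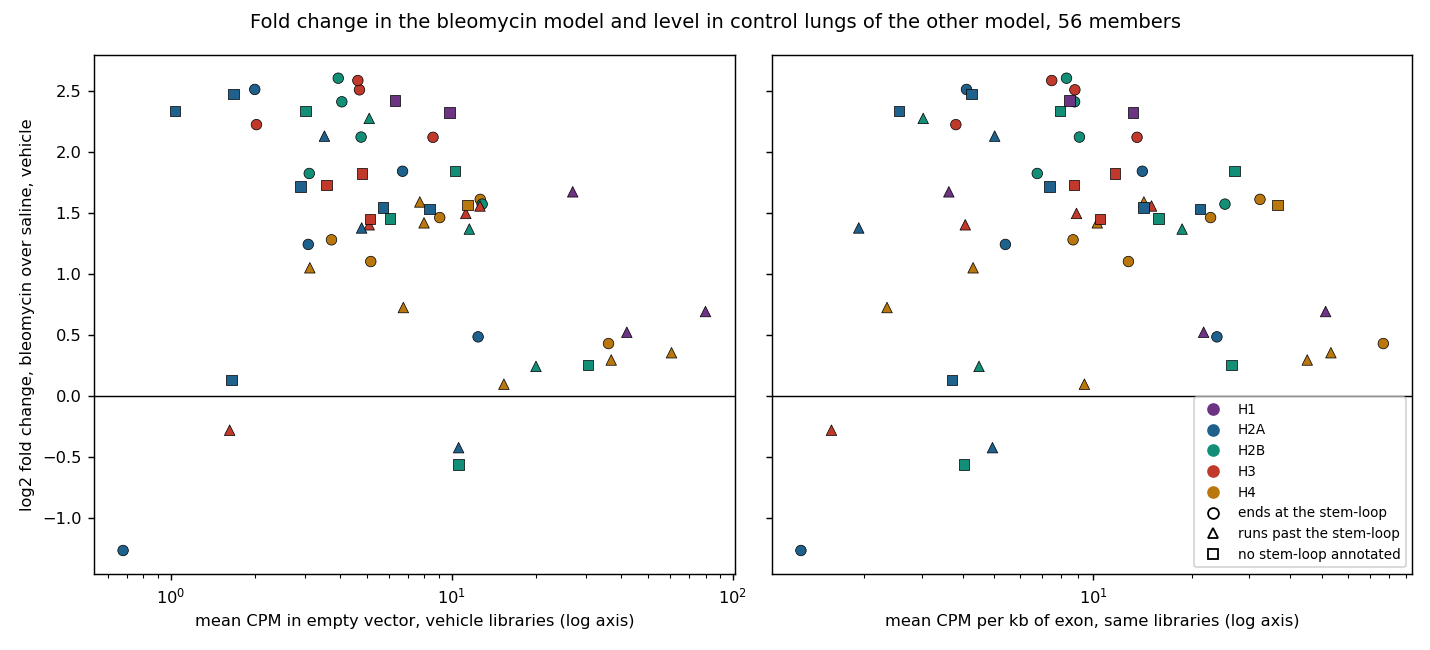
Log2 fold change after bleomycin with vehicle against the mean level in control lungs of the other model, for 56 members, on log axes of CPM and of CPM per kb. Most members with high counts lie near 0 in the first panel (rho −0.39), and the points scatter in the second (rho −0.09).

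The genes listed as polyadenylated in differentiated cells, a list chosen from general knowledge, had a lower median change after bleomycin than the other members. They are Hist1h1c, Hist1h2bc, Hist1h2be, Hist2h2be, Hist3h2a, Hist3h2ba and Hist4h4, of which 6 were tested in the bleomycin model. Of these, Hist1h1c and Hist4h4 rose and Hist2h2be fell, with a median of 0.25, while of the 50 other members 46 rose and 1 fell with a median of 1.57. Of all genes 20.6% were called higher and 20.3% lower. The 9 members with a mean of at least 15 CPM, on the list or not, had a median of 0.36. Hist1h1c, Hist1h2bc and Hist1h2be are among those 9. The part of the count level in the list's values was not tested. Hist4h4, which gives an H4 protein from its own locus, rose by 0.73 ± 0.16 (adjusted p = 0.00139). The annotated transcripts of Hist4h4, Hist1h2be and Hist3h2a run 2445, 1861 and 1643 bases past the stem-loop. In Hist1h2be 496 exon bases are shared with Hist1h1e, and Hist3h2a overlaps Trim17 on the same strand, so their counts are uncertain.

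In bleomycin lungs saracatinib lowered 41 of 56 members relative to vehicle and raised none, at an adjusted p under 0.05 by edgeR's quasi-likelihood test. Of all genes tested 8.71% were called lower. The members' median log2 fold change was −1.07, against 0.01 over all genes. The groups did not overlap in 9 members, against 6.06% of all genes in this direction. Replicate 1 of bleomycin with saracatinib (summed level 655 CPM) often reached the vehicle range. The lowest library of that range in summed level was replicate 1 with vehicle, at 648 CPM. This comparison shares the bleomycin and vehicle libraries with the comparison of bleomycin and saline, so values are set side by side and are not independent.

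By class, 3 of 5 H1, 11 of 14 H2A, 10 of 13 H2B, 10 of 11 H3 and 7 of 13 H4 genes fell with saracatinib in bleomycin lungs. Hist1h3b had 4.48, 2.38, 3.15, 3.21 and 2.96 CPM with saracatinib, against 4.49 to 16.3 CPM with vehicle. The groups touched without overlapping, and it fell by 1.59 ± 0.27 on the log2 scale (adjusted p = 0.00225). Hist1h4b had 8.21, 5.18, 6.08, 8.18 and 6.79 CPM and fell by 1.11 ± 0.18 (adjusted p = 0.00213), with all libraries below the vehicle range. Hist2h2ac had 10.9, 11.7, 10.4, 11.8 and 10.8 CPM, against 12.3 to 20.8 CPM with vehicle. These levels lay within the range of saline lungs or just beside it, and its fall was 0.49 ± 0.12 (adjusted p = 0.0142). Hist1h1b had 12.6, 4.25, 3.92, 8.25 and 6.08 CPM. Its replicate 1 lay above the lowest vehicle library, and it fell by 1.66 ± 0.35 (adjusted p = 0.00494). Hist1h2bk had 4.71, 1.22, 1.62, 1.45 and 1.72 CPM and fell by 1.67 ± 0.33 (adjusted p = 0.00389), again with replicate 1 within the vehicle range. Other members of small p were Hist1h2bn (−1.43, adjusted p = 0.00212), Hist1h4m (−0.95, adjusted p = 0.00223) and Hist1h3c (−1.65, adjusted p = 0.00295).

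The members that had changed little after bleomycin also changed little with saracatinib. Hist1h4d had 63.9, 70.2, 53.3, 73.3 and 70.3 CPM with saracatinib, with 3 of 5 libraries within the range seen with vehicle, and a log2 value of −0.16 (adjusted p = 0.302). Hist1h1c had −0.28 (adjusted p = 0.181). None of the 6 tested genes of the polyadenylated list was called, at a median of −0.24, while 41 of the 50 others fell, at a median of −1.18. Of the 9 members with a mean of at least 15 CPM, on the list or not, 1 fell, Hist1h1d, and the median of the 9 was −0.26. Hist2h2be had 6.54, 7.99, 7.93, 7.11 and 7.02 CPM, and its value of 0.36 was not called (adjusted p = 0.163).

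With saracatinib in both groups, 10 of 56 members were higher after bleomycin than after saline, where 7.79% of all genes were called higher. The median was 0.64, and 34 members had an unadjusted p under 0.05. The 10 were Hist1h4i, Hist1h3d, Hist1h2bj, Hist1h3h, Hist1h2bg, Hist1h2bk, Hist1h4j, Hist1h4k, Hist1h2bf and Hist1h4n. Hist1h4i rose by 1.02 ± 0.26 (adjusted p = 0.0129) here and by 1.05 ± 0.24 (adjusted p = 0.00173) with vehicle. The count of 10 rested on single libraries: it was 1 without replicate 1 of bleomycin with saracatinib and 15 without replicate 1 of saline with saracatinib.

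Saline lungs showed no called member with saracatinib by edgeR, and none had an unadjusted p under 0.05, while DESeq2 and limma voom also called 0. The median was −0.20, and 0.00531% of all genes were called. The test of whether the saracatinib effect differed between bleomycin and saline lungs called 1 member, Hist1h4b, at −1.14 ± 0.27 (adjusted p = 0.0446). Lower calls of this kind were made in 0.446% of all genes. The median over the members was −0.93, and 31 had an unadjusted p under 0.05. Over 25 alternatives the adjusted p of Hist1h4b ran from 0.00694 to 0.0947, and 15 of them ended the call. Without replicate 1 of bleomycin with saracatinib 14 members were called.

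Ad-TGFβ raised 11 of 57 tested members over empty vector in lungs given vehicle and lowered none. Of all 18834 genes tested 11.5% were called higher, a share below the members' own, and the shares were not tested against each other. Hist2h2aa2 did not pass the filter on low counts in this model. The median over the members was 0.51, and 25 had an unadjusted p under 0.05. Only Hist1h4h and Hist1h2bg had groups that did not overlap, against 5.52% of all genes. The count was 32 without replicate 3 of empty vector with vehicle, and 5 without replicate 1 or replicate 2 of Ad-TGFβ with vehicle.

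The members called were 6 H4 genes, 3 H3 genes and 2 H2B genes. Hist1h4h had 38.8, 30.0, 40.1, 38.2 and 33.4 CPM with empty vector and 40.5, 48.7, 43.3, 45.4 and 42.4 CPM with Ad-TGFβ. The step between the groups was narrow, and the log2 fold change was 0.28 ± 0.07 (adjusted p = 0.00885). Hist1h2bg had 14.8, 8.55, 17.2, 11.8 and 5.41 CPM with empty vector and 20.0, 23.5, 17.9, 21.4 and 19.1 CPM with Ad-TGFβ. It rose by 0.81 ± 0.23 (adjusted p = 0.0158), and its spread lay mostly in the empty vector libraries. Hist1h2bc, which had not been called after bleomycin, had 39.3, 28.4, 32.3, 27.3 and 25.6 CPM with empty vector and 44.7, 48.8, 41.3, 35.9 and 36.3 CPM with Ad-TGFβ. Its ranges overlapped by 1 empty vector library, and it rose by 0.44 ± 0.11 (adjusted p = 0.00736). The difference between the models for Hist1h2bc was −0.17 ± 0.20 (adjusted p = 0.633). The other called members were Hist1h3h (0.91 ± 0.25, adjusted p = 0.0129), Hist1h4n, Hist1h3d, Hist1h4k, Hist1h4m, Hist1h3e, Hist4h4 and Hist1h4d, with log2 fold changes from 0.30 to 0.75.

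The members with the largest rises after bleomycin were variable among empty vector lungs. Hist1h3b had 5.29, 2.29, 9.31, 5.26 and 1.02 CPM with empty vector and 9.44, 10.3, 6.79, 10.6 and 9.04 CPM with Ad-TGFβ. The Ad-TGFβ libraries were all high, but replicate 3 of the controls was within their range, and the change of 0.97 ± 0.37 was not called (adjusted p = 0.0603). Hist1h1b had 7.76, 5.11, 17.0, 13.8 and 5.51 CPM with empty vector and 15.2, 18.4, 13.8, 15.8 and 18.1 CPM with Ad-TGFβ, a change of 0.72 ± 0.32 (adjusted p = 0.105). Hist1h2bk had 4.87, 1.77, 8.13, 3.94 and 1.02 CPM with empty vector and 6.2, 8.06, 4.00, 7.53 and 4.90 CPM with Ad-TGFβ, a change of 0.61 ± 0.40 (adjusted p = 0.27). For these 3 genes the absolute levels in Ad-TGFβ lungs were of the order of those in bleomycin lungs. The controls were not: Hist1h2bk stood at 0.596 to 1.69 CPM in saline lungs. These were normalised by the same method but separately, and belong to another experiment.

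Saracatinib called no member in either kind of lung of the Ad-TGFβ model. In Ad-TGFβ lungs the median was −0.26, 3 members had an unadjusted p under 0.05, the lowest adjusted p was 0.335, and DESeq2 and limma voom called 0. Hist1h3b had 7.43, 3.34, 7.44, 6.83 and 7.59 CPM with saracatinib there, and replicate 2 stood below the others. In empty vector lungs the median was −0.27, 1 member had an unadjusted p under 0.05, the lowest adjusted p was 0.446, and both other tools called 0. Of all genes 0.0903% were called in Ad-TGFβ lungs and 0.00531% in empty vector lungs. The interaction called none of the members (1 at an unadjusted p under 0.05, median 0.04, and 0 by both other tools) and 0.0% of all genes. With saracatinib in both groups, Ad-TGFβ raised Hist1h1c (0.42 ± 0.11, adjusted p = 0.0456) and Hist1h1e (0.45 ± 0.12, adjusted p = 0.0468), 2 of 57 members, against 2.21% of all genes, with a median of 0.57 and 32 members at an unadjusted p under 0.05. Each of these calls was lost in 9 of 15 alternatives, with adjusted p up to 0.154 for Hist1h1c and 0.152 for Hist1h1e, and leaving out single libraries gave 0 to 3 called members.

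In a fit of all 40 libraries the rise after bleomycin exceeded that after Ad-TGFβ, both with vehicle, in 28 of 58 members and was exceeded in none. Of 19529 genes tested 8.64% were called in this direction. The median difference was 0.98 on the log2 scale, and all 28 lay in the Hist1 cluster. Hist1h3a had 1.33 to 2.01 CPM after saline, 4.49 to 16.5 CPM after bleomycin, 2.35 to 8.04 CPM with empty vector and 5.31 to 8.32 CPM with Ad-TGFβ. The lowest group was thus saline, while the bleomycin and Ad-TGFβ ranges overlapped. Its difference was 2.01 ± 0.48 (adjusted p = 0.00365), and that of Hist1h1a was 1.79 ± 0.47 (adjusted p = 0.00868). Hist1h3f and Hist1h2ac differed by 1.10 each (adjusted p = 0.00989 and 0.0105), and Hist1h2bk by 2.00 ± 0.56 (adjusted p = 0.0136). The count depended on single libraries. It was 5 without replicate 3 of empty vector with vehicle and 9 without replicate 3 of bleomycin with vehicle. The models differ in the agent, its route and their controls, and these cannot be told apart in this comparison.

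The saracatinib effect in injured lungs differed between the models for 1 member, Hist1h2ah, by −2.12 ± 0.60 (adjusted p = 0.0496), against 1.41% of all genes called in this direction. Hist1h2ah had 1.06 to 3.08 CPM after bleomycin with vehicle and 0.288 to 1.14 CPM with saracatinib. In Ad-TGFβ lungs it had 0.697 to 1.53 CPM with vehicle and 0.590 to 1.76 CPM with saracatinib. With at most 40 counts in a library these levels are imprecise. The membership of Hist1h2ah in the bleomycin model rested on the bleomycin and vehicle group, which this test also uses. Over 26 alternatives the adjusted p of Hist1h2ah ran from 0.0152 to 0.134, and 18 of them ended the call. Over the members the median was −0.79, and 32 had an unadjusted p under 0.05. Leaving out single libraries gave from 0 called members to 10, the latter without replicate 1 of bleomycin with saracatinib.

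**Figure D5:**
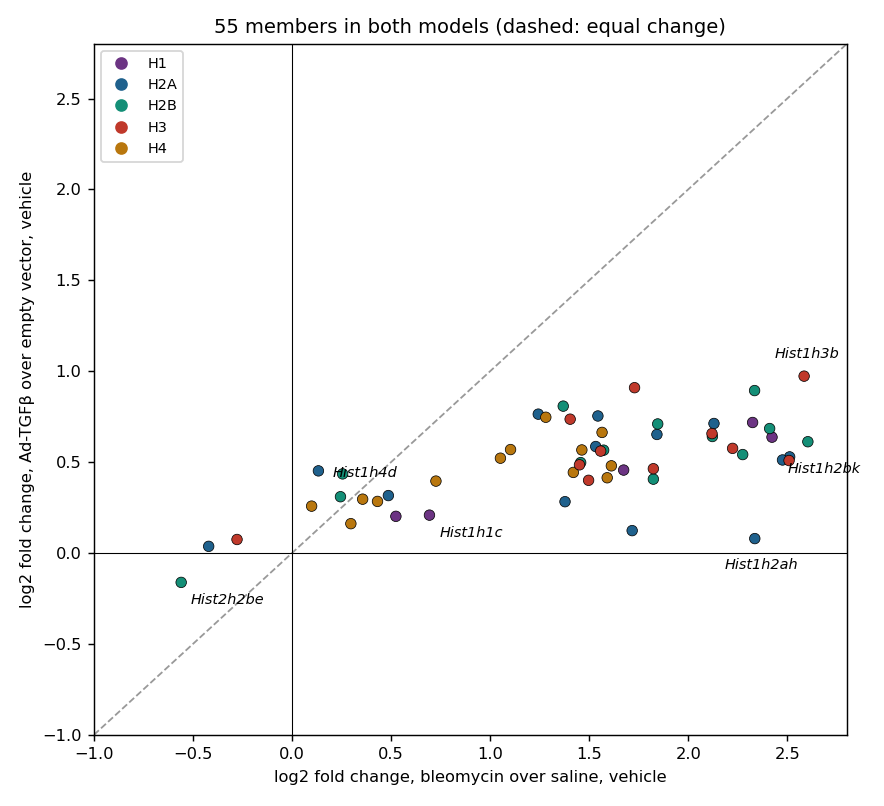
Log2 fold changes of the 55 members tested in both models, with bleomycin over saline on the x axis and Ad-TGFβ over empty vector on the y axis, each with vehicle and coloured by class. Most points lie to the right of the dashed line of equal change, and Hist1h2bc lies to its left.

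The other genes of the pathway were described from lists of general knowledge. Of 19 genes for histone RNA synthesis and 3′ processing, 3 rose and 2 fell after bleomycin, with a median of 0.05, both at shares under the 20.6% and 20.3% of all genes. Npat, the coactivator of histone transcription, rose by 0.28 ± 0.10 (adjusted p = 0.0307), and Cpsf2, a part of the cleavage complex, by 0.38 ± 0.08 (adjusted p = 0.00076). Slbp, whose protein binds the stem-loop and which is listed among the S phase genes too, had 0.17 ± 0.09 (adjusted p = 0.126), and Lsm11 of the U7 snRNP had 0.04 (adjusted p = 0.819). After Ad-TGFβ Npat rose by 0.25 ± 0.07 (adjusted p = 0.0113) and Eri1, a nuclease of histone RNA decay, by 0.25 ± 0.06 (adjusted p = 0.00869), while Cpsf1 fell by 0.26 ± 0.06 (adjusted p = 0.00455). These were the only calls among the 19, where 11.5% of all genes were called higher and 14.3% lower. These machinery genes thus had small values beside those of the histone members. In bleomycin lungs with saracatinib 1 of 19 fell, Cpsf2 by 0.33 ± 0.08 (adjusted p = 0.0103), where 8.71% of all genes were called lower.

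Of 35 S phase genes 27 rose after bleomycin with a median of 0.68, among them Gins2 of the replicative helicase (2.34 ± 0.27, adjusted p = 2.63e-06) and Clspn of the replication checkpoint (1.67 ± 0.26, adjusted p = 5.07e-05). Of 24 G2 and M phase genes 23 rose with a median of 1.75, and of 12 genes of the E2F and cyclin E axis 10 rose and 1 fell. Over all genes 20.6% were called higher and 20.3% lower after bleomycin. With saracatinib in bleomycin lungs 20 S phase genes, all 24 G2 and M phase genes and 5 genes of the E2F axis fell. After Ad-TGFβ 2 of the 35 S phase genes rose, Mcm4 and Rrm1, and none of the G2 and M phase genes was called. Of all genes 11.5% were called higher there, and 8.71% were called lower with saracatinib in bleomycin lungs. The summed histone level was 1.08 times the summed S phase level in saline lungs, 1.44 times in bleomycin lungs with vehicle and 1.22 times with saracatinib. It was 1.19 times with empty vector and 1.43 times with Ad-TGFβ, each with vehicle. Against the G2 and M phase genes the order was different, at 3.12 times in saline, 1.97 in bleomycin with vehicle, 3.35 in bleomycin with saracatinib, 2.40 with empty vector and 2.38 with Ad-TGFβ with vehicle. Libraries with high histone levels were high in these lists too, such as replicate 3 of bleomycin with vehicle, with 801 CPM of S phase and 806.6 CPM of G2 and M phase genes. The part of cell cycle activity in the histone results was not tested.

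Of 11 tested genes for replication-independent variants 7 rose after bleomycin and none fell, with a median of 0.40. H2afx, coding for H2A.X, rose by 0.98 ± 0.17 (adjusted p = 0.000178), H2afz by 0.68 ± 0.11 (adjusted p = 5.4e-05) and H3f3a, a gene for H3.3, by 0.40 ± 0.09 (adjusted p = 0.00238). Of 21 histone chaperones 6 rose and 1 fell, where 20.6% of all genes rose, and the list's median was 0.10. Among them Asf1b, which hands H3 and H4 to the replication fork, rose by 1.29 ± 0.33 (adjusted p = 0.00448). With saracatinib in bleomycin lungs 3 variants and 6 chaperones fell, H2afx by 0.70 ± 0.17 (adjusted p = 0.0104) and Asf1b by 1.22 ± 0.33 (adjusted p = 0.0181). Of all genes 8.71% were called lower there. Other RNAs that are short or lack a poly-A tail were listed to set beside the histone members. Of 15 tested, 1 rose and 3 fell after bleomycin, with a median of −0.45, and of 16 tested 6 fell after Ad-TGFβ, with a median of −0.83. Called lower among all genes were 20.3% after bleomycin and 14.3% after Ad-TGFβ.

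Markers of other cell types were set beside the histone members. Shares over all genes were 20.6% higher and 20.3% lower after bleomycin, and 11.5% and 14.3% after Ad-TGFβ. With saracatinib in bleomycin lungs they were 5.31% higher and 8.71% lower. Of 12 macrophage markers 10 rose after bleomycin, and their summed level was 283 to 456 CPM in saline lungs, 1355 to 2629 CPM in bleomycin lungs with vehicle and 541 to 1102 CPM with saracatinib. Of 11 T cell markers 9 rose, from 24.2 to 33.9 CPM in saline lungs to 54.9 to 75.7 CPM in bleomycin lungs. With saracatinib in bleomycin lungs 9 macrophage markers fell, no T cell marker was called, and 6 of 9 B cell markers rose. After Ad-TGFβ 9 macrophage markers rose, from 222 to 579 CPM with empty vector to 665 to 801 CPM, and 5 T cell markers rose. Of 10 fibroblast markers 5 rose and 4 fell after bleomycin, and their summed level was 4376 to 5330 CPM in saline lungs, 6101 to 11380 CPM in bleomycin lungs with vehicle and 3995 to 5161 CPM with saracatinib, where 2 rose and 5 fell. All 10 ciliated cell markers fell after bleomycin and all 10 after Ad-TGFβ. After bleomycin 6 of 10 striated muscle, 4 of 10 endothelial and 5 of 9 megakaryocyte and platelet markers fell too, no B cell marker was called, and after Ad-TGFβ 9 of 9 megakaryocyte and platelet markers fell. No marker of the macrophage or T cell lists was at 0 in any group. Their part in the histone results was not tested.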

How the data were processed

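RNA of left lungs was measured in 40 libraries. Per the submitters' processing notes, STAR 2.6.1d, Picard, featureCounts of Subread 1.6.3 and edgeR were used, and the builds named are mm9 and GRCm38. Whether counting used the strand is not stated in the sources used here, which leaves overlapping and antisense genes uncertain. The deposited tables hold whole-number counts per gene, and identifiers were joined to GENCODE M21 (GRCm38). Here the counts were analysed in R 4.3.3 with edgeR 4.0.16: filterByExpr by group, TMM scaling (factors 0.949 to 1.04), the quasi-likelihood test with 1 coefficient per group, and Benjamini-Hochberg adjustment over all genes tested. SEs follow from the fold change and the F statistic. Each model was fitted with its 4 groups, and comparisons between models with all 40 libraries. CPM use TMM-scaled totals, with factors computed in each model by itself. DESeq2 1.42.0, limma 3.58.1 (voom), other size factors, no filter, only the compared groups, other member thresholds and leaving out each library were alternatives. The test was tested on simulated data. Promoters come from RefSeq, and stem-loops from the annotated transcripts.

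The members, gene lists and settings were chosen with earlier results of these data known. Genes were named by rule: the 3 members of highest mean CPM in each class, the 5 called members of smallest p per comparison and direction, the polyadenylated list, members next to the threshold or against the majority, and up to 4 called genes of each other list. Hist1h1b, Hist1h2ab, Slbp, Lsm11 and the members in full lists of calls or exceptions were named after their values were seen. Library totals ran from 8.81 to 17.3 M counts.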

Additional observations from a re-analysis of the deposited data

Results flagged for a closer look

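Over 192 groups of 5 libraries, 10 had a library whose gap to the nearest other library took more than 0.71 of the group's range, which chance gives in about 1 in 20 groups. Replicate 1 of bleomycin with saracatinib stood highest in its group for summed H2A at 60.8 CPM, summed H3 at 74.3 CPM and Hist1h2bg at 14.6 CPM. Replicate 3 of bleomycin with vehicle stood lowest for Hist2h2be at 3.15 CPM, although it was the highest for the summed members. Other libraries apart from their group were replicate 2 of saline with vehicle for summed H3 at 30.3 CPM and replicate 2 of Ad-TGFβ with saracatinib for summed H4 at 201.0 CPM. Replicate 3 of saline with saracatinib stood apart for Hist1h3e at 4.51 CPM, and replicate 3 of empty vector with saracatinib for Hist1h4h at 37.0 CPM. Hist3h2ba, near the threshold of the rule, had 1.68 CPM in replicate 4 of bleomycin with vehicle and 0.715 CPM in replicate 4 of saline with saracatinib.

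Effects that differed between groups by a test of the difference were the saracatinib effect on Hist1h4b, with a log2 difference of −1.14 between bleomycin and saline lungs, and the saracatinib effect on Hist1h2ah, which differed by −2.12 between bleomycin and Ad-TGFβ lungs. The calls were lost in 15 of 25 and 18 of 26 alternatives. Hist1h2ah was a member in the bleomycin model only through its level in the bleomycin and vehicle group. The injury effect differed between the models in 28 members.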

How the results depend on the processing

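No called member changed direction under the alternatives run. Of 50 calls after bleomycin with vehicle, 49 were kept in every alternative, with Hist1h1e the exception, and of 41 calls for saracatinib in bleomycin lungs 36 were kept, the exceptions being Hist1h2ad, Hist1h2ai, Hist1h3d, Hist1h3e and Hist2h3b. Leaving out 1 library gave 49 to 51 and 36 to 43 calls in these comparisons. It gave 1 to 15 for bleomycin with saracatinib, 0 to 14 for the interaction in the bleomycin model, 5 to 32 for Ad-TGFβ with vehicle, 0 to 3 with saracatinib, 5 to 32 for the injury difference between models and 0 to 10 for the saracatinib difference. Of the 28 calls for the injury difference 4 were kept throughout, of 11 for Ad-TGFβ 5, and of 10 for bleomycin with saracatinib 1. Of the 2 calls for Ad-TGFβ with saracatinib, and of the single calls for the bleomycin interaction and the saracatinib difference, 0 were kept. For bleomycin with saracatinib limma voom called 5. The bleomycin interaction had 2 calls without the filter, 6 with DESeq2 and 2 with voom. It had 0 without a pair of libraries known from earlier results to lie farthest from their groups. The pair was replicate 3 of bleomycin with vehicle and replicate 5 of saline with saracatinib. Neither was flagged as apart in the summed level of all members. The saracatinib difference had 0 without the filter, 2 with DESeq2 and 0 without that pair. The injury difference had 18 calls with only the compared groups and 9 without the pair. Ad-TGFβ with saracatinib had 4 with DESeq2, 10 with voom and 0 with only the compared groups, and with vehicle 18 with DESeq2 and 6 with only the compared groups. The causes were not tested. No paired analysis was possible because the labels carry no shared replicate numbers. Members under 5 CPM rest on few counts, and their levels are the least precise.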
